A study of Mus musculus with 18 samples.

Results

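The NR4A orphan nuclear receptors Nr4a1, Nr4a2 and Nr4a3 and the zinc-finger factors Egr1, Egr2 and Egr3 were followed across the sorted cell populations of a mouse model of colorectal liver metastasis. The genes were chosen by name, and all 6 were found among the 54309 genes of the lymphocyte table and among the 13759 genes of the macrophage table. MC38, a mouse colon adenocarcinoma cell line, had been injected into the spleen of female C57BL/6J mice of 8 to 10 weeks, and livers were taken at day 20. The 4 type 1 lymphocyte populations, each with 3 replicate libraries from pools of 6 to 8 samples, were sorted as lineage-negative CD45+ NKp46+ cells. Conventional NK cells (CD49a- CD49b+) and ILC1 (CD49a+ CD49b-) came from metastasis-free liver (MFL), and CD49a- NK and CD49a+ NK cells (both CD49b+) came from liver metastases (LM). The LM CD49a+ NK libraries were identified by their cell type label, since their titles read as tumor ILC1. Metastasis-associated macrophages (MAM) were sorted from metastases as lineage-negative CD45+ CD11b+ cells with high or intermediate F4/80 (F4/80hi and F4/80int, the latter called low in the labels), with 3 libraries each, and pooling of their mice was not stated. All mice carried the MC38 injection, no altered gene was stated, and there was no tumor-free control. Metastases were digested with enzymes for 30 min at 37 °C, while MFL tissue was only pressed through a filter, so that site and digestion cannot be told apart in any LM versus MFL comparison. F4/80hi and F4/80int MAM shared the digestion, as did the LM populations.

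NR4A and EGR genes are immediate-early genes. They are usually low in resting lymphocytes and are switched on within minutes by antigen or activating receptors, calcium, cAMP, growth factors or stress, through CREB, SRF and MEF2 proteins already present on their promoters. NR4A receptors bind DNA without a classical ligand and, with EGR2 and EGR3, are known in T cells as restraints on activation that accompany tolerance and exhaustion. In the myeloid lineage, Nr4a1 is known for its requirement in Ly6C-low patrolling monocytes, and Egr1 and Egr2 for their roles in monocyte and macrophage differentiation.

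In the GRCm39 build (GENCODE vM39), Nr4a1 (ENSMUSG00000023034) lies at chr15:101151980-101172681 on the plus strand, Nr4a2 (ENSMUSG00000026826) at chr2:56996842-57014331 on the minus strand and Nr4a3 (ENSMUSG00000028341) at chr4:48045153-48086447 on the plus strand. Egr2 (ENSMUSG00000037868) lies at chr10:67371305-67378018 and Egr3 (ENSMUSG00000033730) at chr14:70314350-70320063, both on the plus strand. The identifier of Egr1 is ENSMUSG00000038418. The lncRNA Gm56721 overlaps Nr4a1 on the same strand, so reads could be divided between the 2 genes. Gm63176 and Gm63180 overlap Nr4a1, Gm68858 overlaps Nr4a3 and Gm66196 overlaps Egr2 on the opposite strand.

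The promoters of the NR4A genes are shown because these 3 members varied together across the lymphocyte libraries. RefSeq promoter windows (GRCm38.p6, 250 bases before to 50 after the start) were held for 4 of the 6 members. Each NR4A window contained 4 copies of TGACG, the core of the CREB binding site, counted on both strands and all within the 250 upstream bases. At least 4 copies were present in 0.231% of 32851 windows (76 windows), and at least 1 copy in 20.8%. The upstream 250 bases are printed 5′ to 3′ on the strand of the gene, with TGACG and its reverse complement CGTCA in capitals.
Nr4a1, chr15:101266596-101266845, plus strand: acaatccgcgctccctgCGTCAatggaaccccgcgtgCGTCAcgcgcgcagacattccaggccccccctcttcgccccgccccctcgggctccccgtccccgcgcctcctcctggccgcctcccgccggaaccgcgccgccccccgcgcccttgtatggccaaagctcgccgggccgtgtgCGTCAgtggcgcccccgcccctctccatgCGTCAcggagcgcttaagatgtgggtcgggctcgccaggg
Nr4a2, chr2:57124004-57124253, minus strand: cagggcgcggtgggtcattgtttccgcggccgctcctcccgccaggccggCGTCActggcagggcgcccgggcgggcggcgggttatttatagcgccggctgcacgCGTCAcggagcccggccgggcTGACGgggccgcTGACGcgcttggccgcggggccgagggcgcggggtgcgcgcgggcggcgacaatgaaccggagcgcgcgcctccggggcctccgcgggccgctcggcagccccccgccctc
Nr4a3, chr4:48045055-48045304, plus strand: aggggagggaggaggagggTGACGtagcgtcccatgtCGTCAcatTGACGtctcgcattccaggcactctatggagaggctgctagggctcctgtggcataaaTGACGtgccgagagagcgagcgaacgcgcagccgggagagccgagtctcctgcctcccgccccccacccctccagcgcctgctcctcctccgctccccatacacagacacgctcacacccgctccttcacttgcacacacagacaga

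None of the 3 NR4A windows held a CArG box (the SRF site), the palindrome TGACGTCA, which overlaps the TGACG search, the AP-1 site TGANTCA, the EGR site GCGTGGGCG or the NR4A site AAAGGTCA. These motifs were found in 1.63%, 1.79%, 7.81%, 0.612% and 1.51% of all windows, respectively. Egr2 had 5 windows, of which 4 held a CArG box. In 3 of these, which overlap, it was the same box, and they held the same 2 copies of TGACG. The 2 distinct CArG boxes of Egr2 are printed with flanking bases, with the box in capitals. These matches describe the letters only.
Egr2, chr10:67537484-67537513, plus strand: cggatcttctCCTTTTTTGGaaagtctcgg
Egr2, chr10:67537787-67537816, plus strand: gttcctcagtCCATATATGGgcagcgacgt

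Libraries held 8795721 to 14386834 counts in the lymphocytes and 21278959 to 32267015 in MAM. The spread between replicates differed between groups: the biological coefficient of variation was 0.517 in MFL NK cells and 0.657 in MFL ILC1, against 1.25 in LM CD49a- and 1.09 in LM CD49a+ NK cells, and 0.160 and 0.164 in F4/80int and F4/80hi MAM. Every lymphocyte library expressed the shared NK and ILC1 markers (Ncr1, Klrb1c, Nkg7, Tbx21 and Il2rb), and MFL NK cells held Eomes at 563 to 721 CPM (counts relative to the TMM-scaled library total), against 7.58 to 40.2 CPM in ILC1. Itga1, which encodes CD49a, reached 646 to 680 CPM in ILC1 and 105 to 156 CPM in LM CD49a+ NK cells, and was at 5.83 to 20.1 CPM in the CD49a- groups. Adgre1, which encodes F4/80, was at 806 to 1167 CPM in F4/80hi and 124 to 160 CPM in F4/80int MAM. The lymphocyte and MAM tables were normalized and tested separately, with different library kits, and their levels are not compared.

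Per kilobase of transcript, Nr4a1 was the most abundant member in MFL NK cells, at 118 ± 17.3 CPM per kb (SD, n = 3), followed by Nr4a2 at 41.4 ± 10.6, Nr4a3 at 27.6 ± 7.27, Egr1 at 26.3 ± 5.45, Egr3 at 5.22 ± 1.59 and Egr2 at 3.39 ± 0.728. The libraries of Nr4a3 and Egr1 overlapped, those of Nr4a2 and Nr4a3 were separated by less than the spread, and those of the other neighbours in this order did not overlap. In LM CD49a- NK cells Nr4a1 was at 750 ± 513, Nr4a3 at 264 ± 170, Nr4a2 at 123 ± 84.2 and Egr1 at 51.3 ± 23.0 CPM per kb, and in LM CD49a+ NK cells at 533 ± 574, 186 ± 173, 73.6 ± 64.4 and 46.8 ± 24.0 CPM per kb, with libraries that overlapped between neighbours in the order. In MFL ILC1 the order was different, with Nr4a3 at 29.2 ± 9.76, Egr1 at 26.7 ± 3.09, Nr4a1 at 20.5 ± 9.17 and Nr4a2 at 16.9 ± 8.28 CPM per kb, again with libraries that overlapped between neighbours. In F4/80int MAM, Nr4a1 reached 533 ± 121 CPM per kb, above Egr1 at 57.8 ± 18.1, Egr2 at 23.3 ± 4.75, Nr4a3 at 21.9 ± 12.5, Nr4a2 at 14.3 ± 10.7 and Egr3 at 4.72 ± 2.07. Libraries overlapped between neighbours among Egr2, Nr4a3, Nr4a2 and Egr3. Within each single library the order was steadier than these ranges. Per kb, Nr4a1 was above Nr4a3 and Nr4a3 above Nr4a2 in every LM library. Nr4a3 was above Nr4a2 and Nr4a2 above Egr3 in every F4/80int library. The order of Nr4a2 and Egr1 varied between LM CD49a+ NK libraries, that of Nr4a3, Egr1 and Nr4a1 between ILC1 libraries, and that of Egr2 and Nr4a3 between F4/80int libraries.

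**Figure D1:**
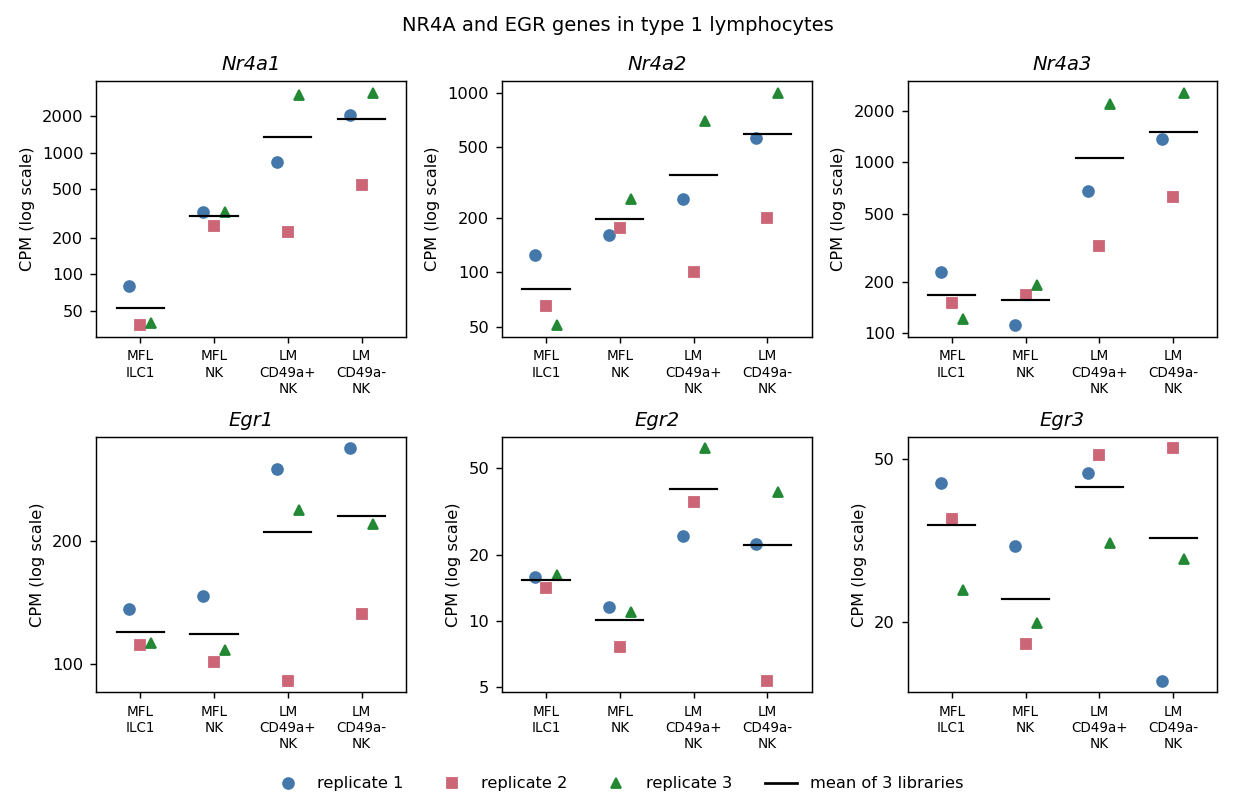
Levels of the 6 genes in the lymphocytes, as TMM-scaled CPM on a log axis, with a point for each library and the mean of each population marked. Nr4a3 was higher in each LM library than in each MFL NK library, from 324 to 2546 CPM against 112 to 193 CPM, while Egr3 stayed between 14.4 and 53.2 CPM in all 12 libraries.

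Whether the early response differed between LM and MFL was first asked of the CD49a- NK cells, the same sorted phenotype at both sites. Nr4a3, the NR4A receptor induced by antigen receptor and NFAT signals in T cells, was higher in LM cells, and the other 5 members did not pass the test. Nr4a3 was at 112, 169 and 193 CPM in MFL NK replicates 1, 2 and 3 and at 1357, 622 and 2546 CPM in LM CD49a- NK replicates 1, 2 and 3. All LM libraries lay above all MFL libraries, by 9.56-fold (log2 fold change 3.26 ± 0.58 (SE), edgeR quasi-likelihood adjusted p = 0.0675, called at adjusted p below 0.1). It was 1 of 10 genes called in either direction of 13594 tested, or 0.0736%, and 0.0662% were called higher in LM. The call was close to the threshold. It was lost without MFL NK replicate 1 (log2 fold change 3.06, edgeR adjusted p = 0.417), 2 (3.31, 0.239) or 3 (3.42, 0.183), without LM CD49a- NK replicate 1 (3.32, 0.124) and without MFL ILC1 replicate 1 (3.25, 0.103), and in a fit of only the 2 groups compared (adjusted p = 0.155). Lower counts in bulk samples may reflect fewer expressing cells or less RNA per cell, which cannot be told apart.

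Nr4a1 (NUR77), used in T cells as a reporter of antigen receptor signals, was at 325, 250 and 326 CPM in MFL NK and at 2049, 542 and 3145 CPM in LM CD49a- NK replicates 1, 2 and 3. The groups did not overlap, as was the case for 4.27% of all genes in the higher direction, with a log2 difference of 2.67 ± 0.69 (edgeR adjusted p = 0.291). Without LM CD49a- NK replicate 2, the lowest of its group, the difference was 3.11 and passed (edgeR adjusted p = 0.0533), as it did without LM CD49a+ NK replicate 3 (2.67, 0.0987) and with DESeq2 (adjusted p = 0.0222). It also passed with limma-voom (2.85, adjusted p = 0.00561), but not with only the 2 groups in the fit (edgeR adjusted p = 0.409). Without a filter on low counts the difference was nearly the same (2.68), but the edgeR adjusted p was 1.5e-23. A value this low from 3 libraries per group with this spread is not taken as support. Nr4a2 (NURR1), best known from dopaminergic neurons, was at 161, 177 and 255 CPM in MFL NK and 557, 201 and 1002 CPM in LM CD49a- NK cells. LM replicate 2 fell within the MFL range, and the log2 difference of 1.57 ± 0.57 did not pass (edgeR adjusted p = 0.709). It did not pass with DESeq2 either (adjusted p = 0.287), but did with limma-voom (1.67, adjusted p = 0.0766). Without a filter on low counts it passed at nearly the same difference (1.58, edgeR adjusted p = 1.8e-06), again not taken as support. Limma-voom called 104 of all genes and the fit without a filter 158, in place of 10.

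The EGR genes did not pass the test. Egr1, a growth-factor and stress-induced SRF target, was at 146, 101 and 108 CPM in MFL NK and 339, 132 and 220 CPM in LM CD49a- NK cells, again with LM replicate 2 inside the MFL range (log2 difference 0.96 ± 0.37, edgeR adjusted p = 0.723). Egr2 was at 11.6, 7.59 and 11.01 CPM in MFL NK and 22.5, 5.32 and 38.8 CPM in LM CD49a- NK cells (1.14 ± 0.69, adjusted p = 0.816). Its LM replicate 2 was the lowest of the 6 libraries and rested on 48 counts. Egr3, which acts with Egr2 in T cell tolerance, was at 30.6, 17.7 and 19.9 CPM in MFL NK and 14.4, 53.2 and 28.4 CPM in LM CD49a- NK cells (0.49 ± 0.52, adjusted p = 0.972), with LM replicate 2 the highest, and the difference was -0.09 without that library. The median log2 difference of the 6 members was 1.36, against -0.09 over all genes tested.

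CD49a+ NK cells, the metastatic population that shares CD49a with ILC1, were compared with the same MFL NK libraries, so that this comparison is not independent of the previous one. Nr4a3 was again the member that passed, at 682, 324 and 2187 CPM in LM CD49a+ NK replicates 1, 2 and 3. Each of these lay above the 112 to 193 CPM of MFL NK cells, by 6.74-fold (log2 fold change 2.75 ± 0.57, edgeR adjusted p = 0.0400). Of all genes tested, 88 or 0.647% were called, and 0.427% were called higher in LM. The call was lost without MFL NK replicate 1 (log2 fold change 2.55, edgeR adjusted p = 0.260), 2 (2.80, 0.138) or 3 (2.92, 0.127), and with only these 2 groups in the fit (adjusted p = 0.121). Without LM CD49a+ NK replicate 3, the highest library, it was also lost (1.67, 0.209).

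Nr4a1 was at 845, 222 and 3007 CPM in LM CD49a+ NK cells. Replicate 2 lay below all MFL NK libraries while replicates 1 and 3 lay above them, and the log2 difference of 2.18 ± 0.67 did not pass (edgeR adjusted p = 0.283). It passed without that replicate 2 (2.68, edgeR adjusted p = 0.0454) and with DESeq2 (adjusted p = 0.0736). Without LM CD49a+ NK replicate 3 the difference was 0.82 (edgeR adjusted p = 0.717), and with limma-voom it was 1.21 (adjusted p = 0.318). Nr4a2, at 258, 101 and 693 CPM, also had LM libraries on both sides of the MFL range (0.83 ± 0.56, edgeR adjusted p = 0.794), and its difference was -0.14 without LM CD49a+ NK replicate 3.

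Egr2 was at 24.5, 34.8 and 61.7 CPM in LM CD49a+ NK cells, above the 7.59 to 11.6 CPM of MFL NK cells in every library. The log2 difference was 2.00 ± 0.70 (edgeR adjusted p = 0.371), and it passed with DESeq2 (adjusted p = 0.0363) and with limma-voom with sample weights (adjusted p = 0.0265). Egr3, at 46.2, 51.2 and 31.2 CPM, also did not overlap with the 17.7 to 30.6 CPM of MFL NK cells, by a narrow margin (0.92 ± 0.52, adjusted p = 0.648). Groups did not overlap in the higher direction for 7.06% of all genes. Egr1 was at 301, 90.8 and 239 CPM, with replicate 2 below the MFL libraries (0.83 ± 0.37, adjusted p = 0.485). The median log2 difference of the members was 1.46, against -0.04 over all genes.

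**Figure D2:**
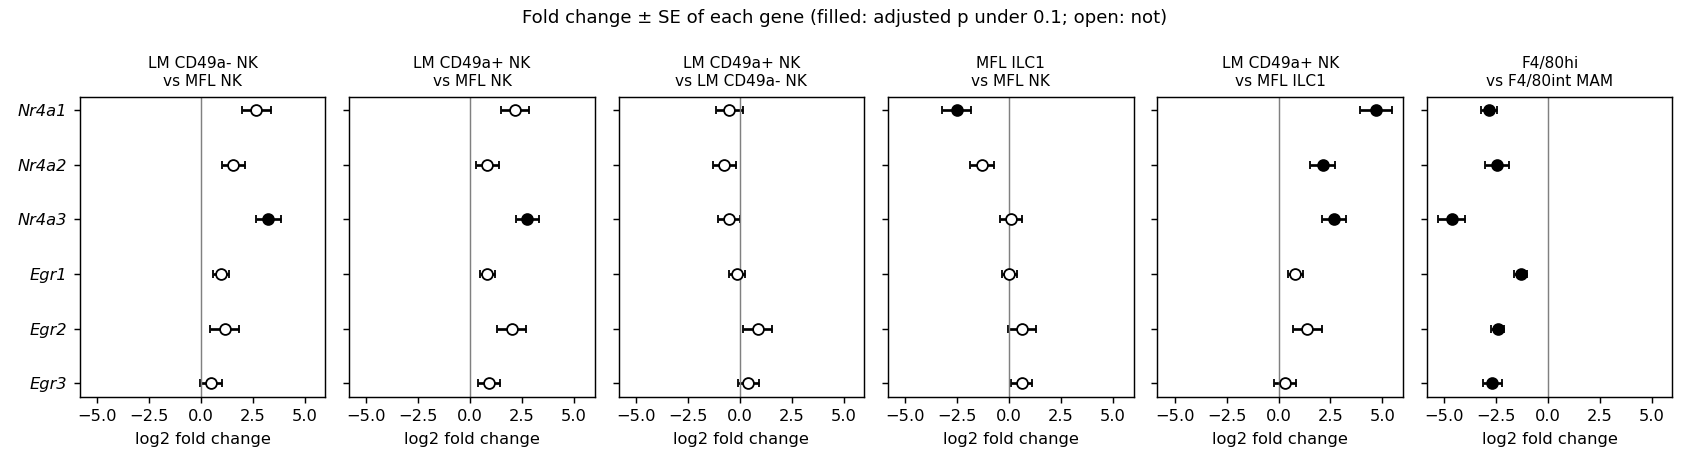
Log2 differences of the 6 genes with standard errors, by comparison, from the edgeR fits, with filled points where the adjusted p was below 0.1. Nr4a3 passed in both LM versus MFL NK comparisons (3.26 and 2.75), no gene passed between LM CD49a+ and CD49a- NK cells, and all 6 passed in MAM (-1.32 to -4.64).

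CD49a+ and CD49a- NK cells of the metastases shared site and digestion. The groups overlapped for each of the 6 members. Over all genes, 5.72% did not overlap in the higher and 4.1% in the lower direction, so this overlap does not set the members apart. No member was called by edgeR, DESeq2 or limma-voom, and none had an unadjusted edgeR p below 0.05 (0.204 to 0.725). EdgeR called 19 of all genes (0.140%) and limma-voom called no gene at all in this comparison. These results do not set the members apart from other genes. Differences were negative for Nr4a1 (log2 -0.49 ± 0.65), Nr4a2 (-0.74 ± 0.56), Nr4a3 (-0.50 ± 0.54) and Egr1 (-0.13 ± 0.37), and positive for Egr2 (0.86 ± 0.68) and Egr3 (0.42 ± 0.52). Standard errors of 0.37 to 0.68 on the log2 scale leave room for differences in either direction. Between libraries of the same replicate number, a pairing that the sources used here do not state, the CD49a+ library was lower in 3 of 3 for Nr4a1, Nr4a2 and Nr4a3 and in 2 of 3 for Egr1, and higher in 3 of 3 for Egr2 and in 2 of 3 for Egr3. With the replicate number as a block, the log2 differences were -0.68 for Nr4a1, -0.81 for Nr4a2, -0.62 for Nr4a3 and 1.03 for Egr2, and no member passed (edgeR adjusted p = 0.602 to 0.908).

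The spread within the metastatic groups had a pattern that both populations shared. Replicate 3 was the highest and replicate 2 the lowest library for Nr4a1, Nr4a2 and Nr4a3 in LM CD49a- and in LM CD49a+ NK cells. The 35 other immediate-early genes of a list (Fos, Jun, Dusp, Klf and others) followed the same order, with summed levels of 28754, 10702 and 32413 CPM in LM CD49a- NK and 21275, 9430 and 27987 CPM in LM CD49a+ NK replicates 1, 2 and 3. In MFL NK cells the sum was 13458 to 16453 CPM, so that LM replicate 2 lay below and LM replicates 1 and 3 above it. The 9 heat shock genes of a dissociation list had the opposite order, with 10936 and 10703 CPM in replicate 2 and 6680 and 7429 CPM in replicate 3 of the LM groups, against 4328 to 5830 CPM in MFL NK cells. Leaving out replicate 2 of both LM populations raised the number of members called against MFL NK cells from 1 to 4 in each, and leaving out replicate 3 of both left 1 for CD49a- and 0 for CD49a+ NK cells (Nr4a3 1.66, edgeR adjusted p = 0.129). Calls over all genes rose as well, for CD49a- NK cells from 10 to 141 without replicate 2 and to 218 without replicate 3. These 2 alternatives were chosen after the values were seen.

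**Figure D3:**
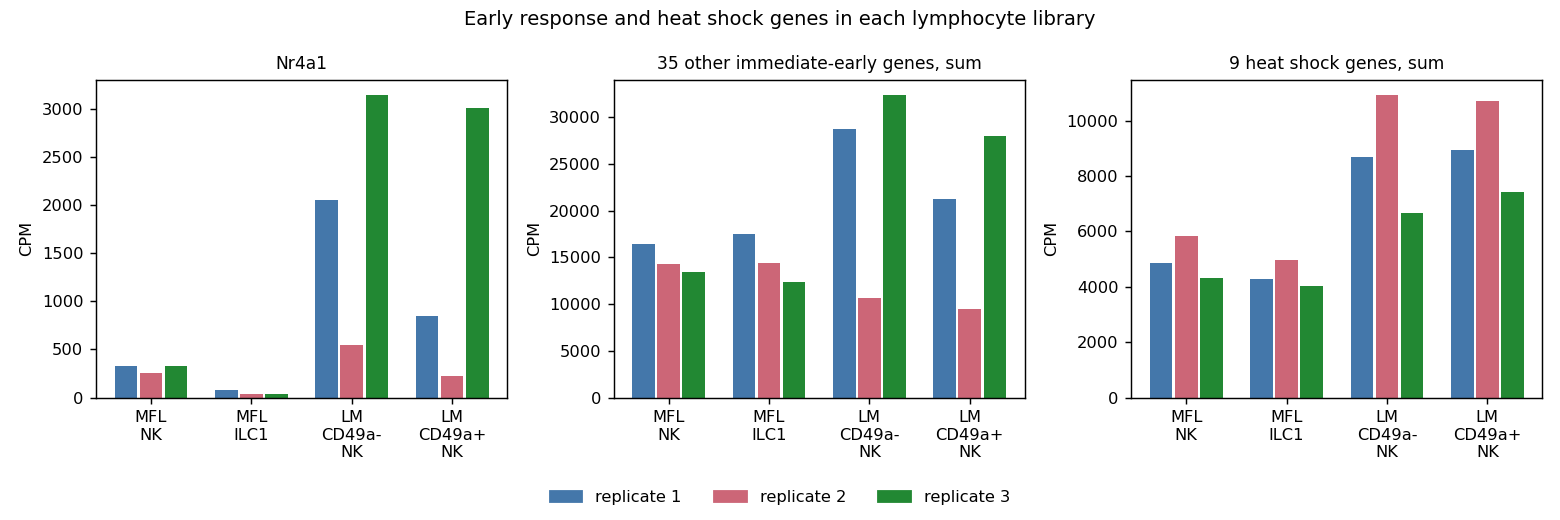
Nr4a1 level and the summed levels of the 35 other immediate-early genes and the 9 heat shock genes in the lymphocytes, in CPM, with a bar for each library grouped by population. In both LM populations replicate 3 was highest and replicate 2 lowest for Nr4a1 (CD49a- NK 3145 and 542 CPM, CD49a+ NK 3007 and 222 CPM) and for the immediate-early sum, while the heat shock sum was highest in replicate 2.

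Other measured properties moved with the replicates. Dendritic cell markers summed to 75.0 and 44.6 CPM in replicate 3 of LM CD49a- and LM CD49a+ NK cells and to 4.74 to 14.3 CPM in the other LM libraries, almost all from Zbtb46, while Xcr1 and Clec9a were at 0 in every LM library. Macrophage markers summed to 25.7 and 44.0 CPM in replicate 2 of LM CD49a- and LM CD49a+ NK cells. They summed to 0 to 6.88 CPM in the other LM libraries. Adgre1 and C1qc were at 0 in every LM library, as were the Kupffer cell and neutrophil markers. In MFL the macrophage sum was 119.6 CPM in ILC1 replicate 2, 8.24 to 9.59 CPM in the other ILC1 libraries and 4.11 to 11.8 CPM in NK cells. Hepatocyte markers summed to 17.1 to 118 CPM in MFL NK cells and 34.8 to 87.0 CPM in ILC1, against 0 to 6.35 CPM in LM CD49a- and 0 to 13.1 CPM in LM CD49a+ NK cells, with Alb the highest of them in MFL. Endothelial markers summed to 86.4 to 144 CPM in MFL NK cells, 122 to 143 CPM in ILC1, 79.2 to 259 CPM in LM CD49a- and 220 to 281 CPM in LM CD49a+ NK cells, nearly all from Pecam1, and the other 4 were at 0 in every LM library. The part of heat shock, depth and these markers in the NR4A differences was not tested.

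Of the 35 immediate-early genes, 0 were called between LM CD49a- and MFL NK cells by edgeR, although 33 had a positive log2 difference (median 0.62). Between LM CD49a+ and MFL NK cells, 2 were called, Maff, a small MAF factor of the stress response (164 against 23.5 CPM, log2 2.80 ± 0.66, edgeR adjusted p = 0.0837), and Zfp36l1, which promotes decay of AU-rich mRNAs (1.54 ± 0.33, adjusted p = 0.0480). Both calls were lost without any of the 3 MFL NK libraries and without LM CD49a+ NK replicate 1 or 3 (edgeR adjusted p up to 0.323 for Maff and 0.294 for Zfp36l1). None of the 13 SRF, CREB and MEF2 regulators, the 7 calcineurin and NFAT genes or the 4 tested partners of the NR4A and EGR proteins was called in either comparison. Of the 8 tested heat shock genes, 2 were called in both comparisons, the near-identical Hspa1a and Hspa1b (log2 3.901 and 3.72 in CD49a-, 3.34 and 3.47 in CD49a+ NK cells), between which counting can divide reads. Hspa1a was lost without any MFL NK library in both (edgeR adjusted p up to 0.417 and 0.224), without LM CD49a- NK replicate 1 in the former and LM CD49a+ NK replicate 2 in the latter, and Hspa1b without MFL NK replicate 1 or 3 in CD49a- NK cells (adjusted p up to 0.206).

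In MFL, ILC1 were compared with NK cells, neither of which had been digested. Nr4a1 was lower in ILC1, at 79.2, 38.0 and 39.5 CPM in replicates 1, 2 and 3, against 325, 250 and 326 CPM in NK cells. The groups were far apart, with ILC1 at 0.174 times the NK cell level (log2 fold change -2.52 ± 0.69, edgeR adjusted p = 0.0712). Of all genes, 3.06% were called, and 1.68% were called lower in ILC1. The call was lost without MFL NK replicate 1 (-2.47, edgeR adjusted p = 0.177) or 3 (-2.46, 0.137), or without ILC1 replicate 1 (-2.96, 0.122), 2 (-2.34, 0.237) or 3 (-2.36, 0.256). It was kept with only the 2 groups in the fit (edgeR adjusted p = 0.000669), with DESeq2 (adjusted p = 0.0198) and with limma-voom (adjusted p = 0.00121).

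Nr4a2 had the same direction, with 125, 65.2 and 50.9 CPM in ILC1 against 161 to 255 CPM in NK cells. The groups did not overlap, as for 13.1% of genes in the lower direction, and the log2 difference of -1.30 ± 0.57 did not pass with all libraries (edgeR adjusted p = 0.497) but did with only the 2 groups in the fit (adjusted p = 0.0392) and with limma-voom (adjusted p = 0.00117). Nr4a3 was at 229, 151 and 121 CPM in ILC1 and overlapped with NK cells (0.08 ± 0.54, edgeR adjusted p = 1). T cell markers, nearly all Cd3g, which ILC1 and NK cells can transcribe, summed to 243 to 676 CPM in ILC1 and 4.98 to 35.7 CPM in the other groups, with Cd3d and Cd3e at 0 to 4.83 CPM in ILC1.

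Egr1 was at 136, 111 and 113 CPM in ILC1, nearly identical to NK cells (log2 difference 0.02 ± 0.37, edgeR adjusted p = 1). Egr2, at 15.8, 14.2 and 16.2 CPM, lay above the 7.59 to 11.6 CPM of NK cells in every library (0.61 ± 0.68), a lack of overlap seen in the higher direction for 12.2% of genes. Egr3, at 43.7, 35.8 and 24.0 CPM, overlapped with NK cells (0.60 ± 0.52), and neither passed (edgeR adjusted p = 1 for both).

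Of the genes around the members, Nab1, a corepressor that EGR proteins recruit, was lower in ILC1, at 103 against 268 CPM (log2 -1.37 ± 0.23, edgeR adjusted p = 0.00184). Mef2d was the 1 call of 13 SRF, CREB and MEF2 regulators, at 129 against 250 CPM (-0.95 ± 0.26, adjusted p = 0.0711). It was lost without any single library of either group (adjusted p up to 0.329). Klf2, a quiescence and trafficking factor of lymphocytes, was at 101 against 1086 CPM (-3.43 ± 0.40, adjusted p = 4.01e-05). Dusp6, an ERK phosphatase (1.98, adjusted p = 0.00203), and Rgs1, a regulator of G protein signals (1.91, adjusted p = 0.0377, lost without ILC1 replicate 1 or MFL NK replicate 2 or 3 with an adjusted p up to 0.176), were higher in ILC1. These 3 were the calls among the 35 immediate-early genes. Tox, a factor of ILC development and of T cell exhaustion, was higher in ILC1 (1.70, adjusted p = 0.0238, and 0.154 without MFL NK replicate 1), as 1 of 6 tested genes of the NR4A-linked exhaustion list.

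Whether CD49a+ NK cells resembled ILC1 in these genes was asked by setting them against each other, a comparison in which site and digestion differ as well. All 3 NR4A genes were higher in LM CD49a+ NK cells, and no EGR gene passed. Nr4a1 was at 845, 222 and 3007 CPM against 79.2, 38.0 and 39.5 CPM, 26.0-fold higher with no overlap (log2 fold change 4.70 ± 0.76, edgeR adjusted p = 0.00168), and this call was kept whichever of the 12 libraries was left out. Nr4a3 was 6.37-fold higher with no overlap (2.67 ± 0.57, adjusted p = 0.0147), a call lost without LM CD49a+ NK replicate 3 (1.59, adjusted p = 0.115). Nr4a2 was 4.36-fold higher (2.12 ± 0.58, adjusted p = 0.0712), with LM replicate 2 (101 CPM) inside the ILC1 range of 50.9 to 125 CPM. It was lost without LM CD49a+ NK replicate 3 (1.15, adjusted p = 0.402) or ILC1 replicate 2 (1.99, 0.225) or 3 (1.88, 0.267), and with only these 2 groups in the fit (2.14, 0.128). Of all genes, 3.58% were called, and 2.29% were called higher in LM CD49a+ NK cells.

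Egr2 did not overlap between LM CD49a+ NK cells and ILC1, at 24.5 to 61.7 against 14.2 to 16.2 CPM, a feature of 9.33% of genes in the higher direction (log2 1.39 ± 0.69, edgeR adjusted p = 0.386). Egr1 (0.81 ± 0.37, adjusted p = 0.338) and Egr3 (0.31 ± 0.52, adjusted p = 0.905) overlapped. Egr1 passed only without LM CD49a+ NK replicate 2 (1.17, edgeR adjusted p = 0.0762).

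The surrounding genes that passed included Crem, a CREB family modulator that is itself cAMP induced (70.6 against 12.7 CPM, log2 2.47 ± 0.59, edgeR adjusted p = 0.0319, lost without LM CD49a+ NK replicate 3 or ILC1 replicate 2 or 3 with an adjusted p up to 0.214), and Mef2d, a MEF2 factor (1.34 ± 0.26, adjusted p = 0.00786). They were the 2 called of 13 SRF, CREB and MEF2 regulators. Mef2d averaged 327 CPM in LM CD49a+ NK cells and 129 CPM in ILC1, against 250 CPM in MFL NK cells. Nab1 was higher in LM CD49a+ NK cells (267 against 103 CPM, 1.37 ± 0.23, adjusted p = 0.00246), at the level of MFL NK cells. Of the 35 immediate-early genes, 5 were higher and 1 lower, among them Nfkbia, the inhibitor of NF-kB (1.98, adjusted p = 0.0228, and 0.161 without LM CD49a+ NK replicate 3), and Klf2 (1.94, adjusted p = 0.00754). Of the exhaustion list, Tigit was higher (1.60, adjusted p = 0.0755) and Tox lower (-2.39, adjusted p = 0.00246). Of the list of EGR2 and EGR3 targets, Tnfrsf9 was higher (1.31, adjusted p = 0.0437) and Lag3 lower (-5.67, adjusted p = 0.0597). Tigit and Lag3 were lost without any ILC1 library or LM CD49a+ NK replicate 1 or 3 (adjusted p up to 0.268 and 0.176), and Tnfrsf9 without ILC1 replicate 1 or 3 or LM CD49a+ NK replicate 1 (up to 0.228). Of the heat shock list, 3 of 8 were higher, including Hsp90ab1 (1.02, adjusted p = 0.0169, and 0.118 without ILC1 replicate 1).

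The difference of CD49a+ from CD49a- cells was compared between sites with an interaction term. No member was called by edgeR, DESeq2 or limma-voom. EdgeR called 140 of all genes, or 1.03%, so the lack of a call does not set the members apart. Nr4a1 had a log2 interaction of 2.03 ± 0.93 (unadjusted p = 0.0423, edgeR adjusted p = 0.557), and the others had adjusted p-values of 0.931 to 1. With no filter on low counts, Nr4a1 was called at nearly the same interaction (2.00, edgeR adjusted p = 8.8e-07), which is not taken as support.

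Over the 12 lymphocyte libraries, log2 CPM of Nr4a1 and Nr4a2 had a Pearson r of 0.96, Nr4a1 and Nr4a3 of 0.88 and Nr4a2 and Nr4a3 of 0.87. With Egr1 the NR4A genes had r of 0.73 to 0.76, with Egr2 0.45 to 0.62 and with Egr3 -0.27 to 0.01. These are descriptions over libraries that share groups, replicate numbers and depth. The genes most like Nr4a1 were Ubald2 and Nfkbia (both r = 0.98) and Tgif1 (0.97), those most like Nr4a2 were Nfkbiz (0.97), Mxd1 and Slc26a11 (both 0.96), and those most like Nr4a3 were Skil (0.98), Nsd3 and Coq10b (both 0.97). For Egr1 they were Tmem243 (0.92), Psma3 and Sqstm1 (both 0.91), for Egr2 B4galt1 (0.94), Hapstr1 and Ern1 (both 0.89), and for Egr3 Stt3b (0.90), Aen (0.89) and Slfn5 (0.87).

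**Figure D4:**
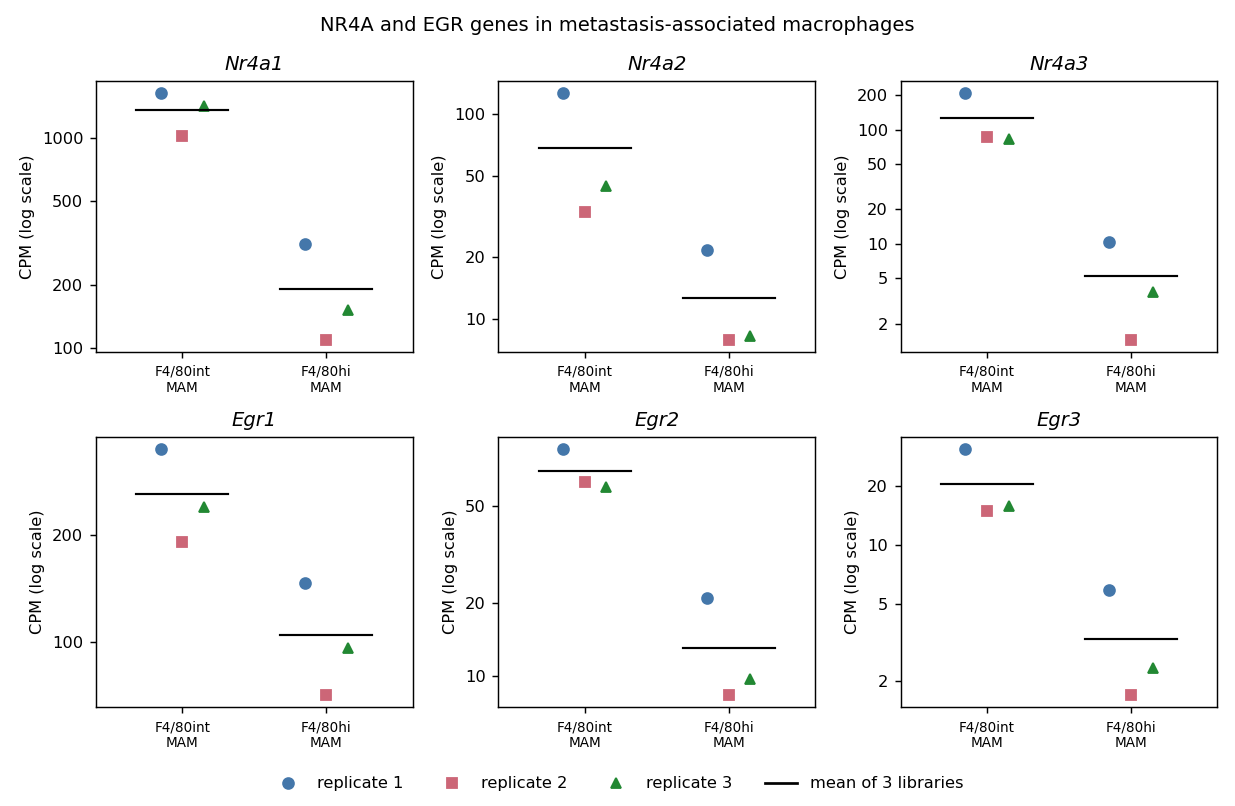
Levels of the 6 genes in F4/80int and F4/80hi MAM, as TMM-scaled CPM on a log axis, with a point for each library and the mean of each subset marked. All F4/80int libraries lay above all F4/80hi libraries for each gene, for Nr4a3 at 82.3 to 208 against 1.45 to 10.3 CPM.

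In MAM, the F4/80 subsets of the same digested metastases were compared. All 6 members were lower in F4/80hi than in F4/80int MAM, with no overlap for any gene, and all 6 passed in every alternative analysis run. The background was high, since 54.9% of the 13759 genes were called, 27.1% of the genes tested were called lower in F4/80hi, and 28.6% had groups that did not overlap in that direction. The median log2 fold change of the members was -2.56, against 0.01 over all genes.

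Nr4a1, the member most closely tied to Ly6C-low monocytes, was at 1633, 1023 and 1421 CPM in F4/80int and at 312, 110 and 152 CPM in F4/80hi MAM replicates 1, 2 and 3. The lowest F4/80int library was far above the highest F4/80hi library, and F4/80hi MAM held 0.141 times the F4/80int level (log2 fold change -2.83 ± 0.38, edgeR adjusted p = 0.000469). Nr4a2 was at 127, 33.4 and 44.8 CPM in F4/80int and 21.8, 7.90 and 8.27 CPM in F4/80hi MAM (-2.45 ± 0.57, adjusted p = 0.00812). Nr4a3 was at 208, 85.5 and 82.3 CPM in F4/80int and 10.3, 1.45 and 3.83 CPM in F4/80hi MAM. This was the widest gap of the 6 genes, with F4/80hi at 0.0402 times the F4/80int level (-4.64 ± 0.65, edgeR adjusted p = 0.000653), and its lowest library rested on 41 counts.

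Egr1 was at 349, 190 and 240 CPM in F4/80int and 146, 70.6 and 96.0 CPM in F4/80hi MAM. It had the narrowest gap, with a level of 0.400 times (log2 fold change -1.32 ± 0.29, edgeR adjusted p = 0.00612). Egr2, a factor of macrophage activation, was at 85.5, 62.5 and 59.8 CPM in F4/80int and 21.0, 8.36 and 9.70 CPM in F4/80hi MAM (-2.43 ± 0.33, adjusted p = 0.000524). Egr3 was at 30.9, 14.96 and 15.7 CPM in F4/80int and 5.85, 1.70 and 2.33 CPM in F4/80hi MAM (-2.67 ± 0.47, adjusted p = 0.00204). Replicate 1 was the highest library of its subset for every member, in both subsets, and pairwise Pearson correlations of log2 CPM over the 6 libraries, which hold the subset difference, were 0.94 to 0.99.

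**Figure D5:**
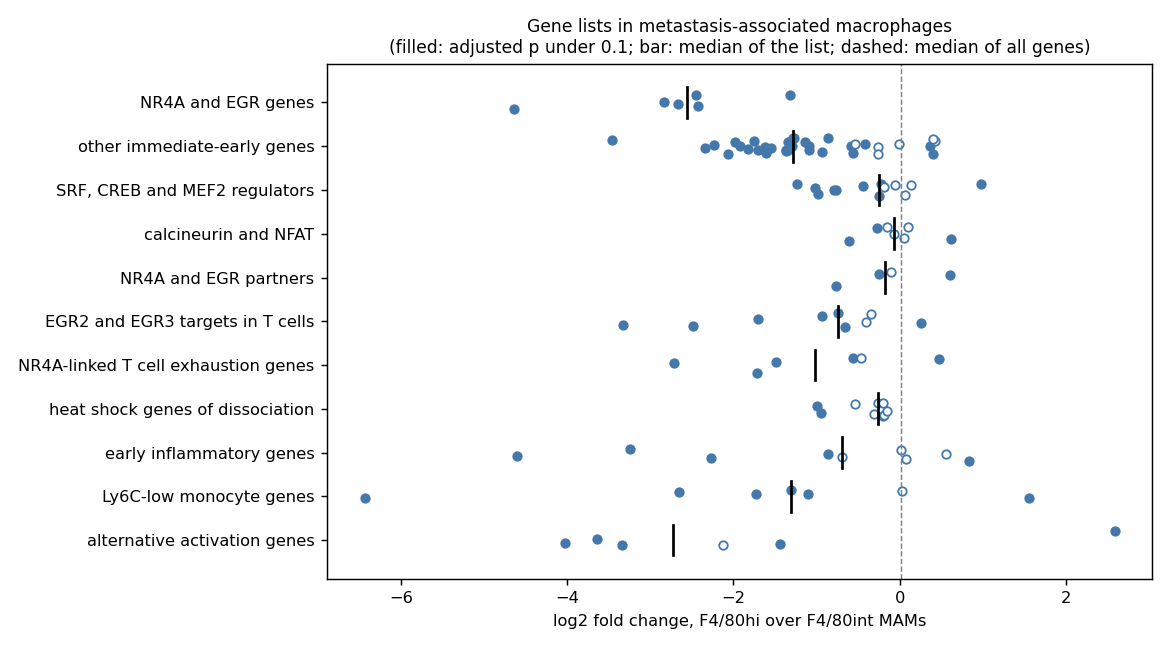
Log2 fold changes of the genes of each list between F4/80hi and F4/80int MAM, with a point for each gene, filled where the adjusted p was below 0.1, and the list median as a bar. The immediate-early list had a median of -1.28 and the alternative activation list of -2.73, against 0.01 over all genes.

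Most of the other immediate-early genes were also lower in F4/80hi MAM. Of 35, 27 were lower and 2 higher, with a median log2 fold change of -1.28. Among them were Dusp5, a nuclear ERK phosphatase (16.0 against 175 CPM, -3.46 ± 0.40, edgeR adjusted p = 0.000215), Csrnp1, a nuclear protein induced by AXIN1 (-2.34, adjusted p = 0.000367), Gadd45b, a stress-response protein (-2.23, adjusted p = 0.000386), and Btg2, an antiproliferative factor (140 against 587 CPM, -2.07, adjusted p = 7.26e-05). Fos (log2 difference -0.26, edgeR adjusted p = 0.367) and Fosb (-0.54, 0.301), chosen after their values were seen, did not pass.

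Among the regulators upstream, 8 of 13 SRF, CREB and MEF2 genes were lower and 1 higher. Mrtfa, an actin-sensing coactivator of SRF (-1.23, edgeR adjusted p = 6.58e-05), and the CREB coactivator Crtc3 (-0.98, adjusted p = 0.000300) were lower, and Mef2c was higher (0.98, adjusted p = 0.000728). Of the 7 calcineurin and NFAT genes, 2 were lower and 1 higher. Over all genes, 27.1% were called lower and 54.9% in either direction, so this list does not stand out. Nfatc1 (-0.61, adjusted p = 0.00153) and the calcineurin subunit Ppp3r1 (-0.27, adjusted p = 0.0191) were lower and Nfatc2 was higher (0.61, adjusted p = 0.0121). Of the 4 tested partners, Nab1 (-0.76, adjusted p = 0.000159) and Rxrb (-0.25, adjusted p = 0.0690, lost without replicate 1 or 2 of either subset with an adjusted p up to 0.207) were lower, and Rxra, which encodes a receptor that pairs with NR4A1 and NR4A2, was higher (0.61, adjusted p = 0.00348).

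The list of EGR2 and EGR3 targets in T cells had 6 of 9 tested genes lower in F4/80hi MAM and 1 higher. These included the ubiquitin ligase Cblb (-1.70, edgeR adjusted p = 1.75e-05), the inhibitor of E proteins Id3 (-2.49) and Tnfrsf9, which encodes 4-1BB (-3.33, 2.07 against 20.8 CPM). Of the 6 tested genes of the NR4A-linked exhaustion list, 4 were lower and 1 higher, and of the early inflammatory genes, 4 of 9 were lower and 1 higher. Il1b was at 148 against 1409 CPM (-3.25 ± 0.40, adjusted p = 0.000289) and Ptgs2, which encodes COX-2, was also lower (-2.27, adjusted p = 0.00196), while Ccl4 was higher (0.83, adjusted p = 0.0273).

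The Ly6C-low monocyte list, the cell type that requires Nr4a1, had 5 of 7 genes lower in F4/80hi MAM and 1 higher. Ace was at 3.75 against 324 CPM (log2 -6.44, edgeR adjusted p = 4.18e-06) and Treml4 at 11.4 against 71.7 CPM (-2.65, adjusted p = 3.54e-05), while Cx3cr1, the fractalkine receptor, was higher in F4/80hi MAM (1.56, adjusted p = 0.000109). In the alternative activation list, 4 of 6 were lower, among them the lectins Mgl2 (-4.03) and Clec10a (-3.64) and the chitinase-like Chil3 (-3.33), and the mannose receptor Mrc1 was higher (2.59, adjusted p = 1.75e-05).

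Markers of other myeloid cells differed between the subsets beside these results. The 3 classical monocyte markers summed to 1501 to 1509 CPM in F4/80int and 431 to 541 CPM in F4/80hi MAM, the 4 dendritic cell markers to 119 to 204 against 6.59 to 8.01 CPM, and the neutrophil markers to 5.94 to 59.7 against 0.248 to 0.585 CPM. Macrophage markers summed to 9452 to 11854 CPM in F4/80int and 18213 to 23666 CPM in F4/80hi MAM. Kupffer cell markers summed to 6.00 to 14.6 CPM over both subsets, with 2 of 4 genes called higher and 1 lower in F4/80hi MAM. The heat shock list summed to 6887 to 8983 CPM in F4/80int and 5364 to 7424 CPM in F4/80hi MAM, with 2 of 9 genes lower, Hspa1a (-0.94, edgeR adjusted p = 0.00725) and Hspa1b (-0.995, adjusted p = 0.0252). That count is near the 27.1% of all genes called lower. The part of these differences in the lower NR4A and EGR levels was not tested.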

How the data were processed

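RNA-seq was analysed from the tables the authors deposited, which hold estimated counts per gene from Salmon, already whole numbers. Per the labels and methods, the 12 lymphocyte libraries were total RNA (SMARTer Stranded Pico v2) quantified with Salmon 1.5.0 and GENCODE M27, and the 6 MAM libraries were poly(A) RNA for which the submitters' processing notes name Trim Galore, Salmon 1.10.0 and GRCm39. The MAM table held 13759 genes, none with a row total below 37, a filter whose rule is not given in the sources used here. Gene IDs were named from GENCODE vM39 (53700 of 54309 and 13726 of 13759). Samples were grouped by their labels. Each table was fitted on its own in edgeR 4.0.16 (R 4.3.3; TMM, filterByExpr, quasi-likelihood F test), with 13594 and 13759 genes tested and p-values adjusted by Benjamini-Hochberg over all of them, called below 0.1. This replaced DESeq2, which was an alternative (1.42.0), as was limma-voom (3.58.1). Log2 CPM used a prior count of 2. The procedure was tested on simulated counts with the same spread in every group. That test does not cover calls under the unequal spread of the lymphocyte groups. The members and lists were chosen with earlier results of these data known. From each list, up to 4 called genes per comparison with the largest log2 fold change and a mean of at least 5 CPM were named, and the 3 genes most correlated with each member. For the lymphocytes, the study reports 3 independent sortings of pooled MFL and LM samples. It does not say which library came from which sorting, or whether MFL and LM cells shared mice. The labels do not say that replicates came from separate mice beyond the lymphocyte pools, so p-values measure the spread between these libraries.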

Additional observations from a re-analysis of the deposited data

How the results depend on the processing

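The replicate spread in LM NK cells and calls close to the threshold limit the lymphocyte results, and the lowest members rest on as few as 41 counts in a library. Of 750 member values under the alternatives, apart from those that left out an LM replicate number from both populations, 682 kept their direction and side of the threshold, 24 were no longer past it, 19 were newly past it and 25 changed sign, none of them past the threshold on either side. The sign changed with limma-voom for Nr4a3 in ILC1 against MFL NK cells (log2 -0.27) and for the Egr2 interaction (-0.20). When libraries were left out, log2 differences that changed sign ranged over -0.089 to 0.84 for Egr3 in LM CD49a- and -0.15 to 1.26 for Nr4a2 in LM CD49a+ against MFL NK cells, over -1.84 to 0.056 for Nr4a1, -1.58 to 0.10 for Nr4a3 and -0.50 to 0.25 for Egr1 in LM CD49a+ against LM CD49a- NK cells, and over -0.22 to 0.27 for Nr4a3 and -0.083 to 0.20 for Egr1 in ILC1 against MFL NK cells. Interactions ranged over -0.41 to 1.199 for Nr4a2, -1.67 to 0.039 for Nr4a3, -0.50 to 0.23 for Egr1, -0.22 to 0.93 for Egr2 and -0.53 to 0.40 for Egr3. For LM CD49a- against MFL NK cells, 1 member was called, against 2 with DESeq2, 3 without a filter, 3 with limma-voom, 0 at an adjusted p of 0.05, 0 with only the 2 groups, 0 to 2 when each library was left out in turn and 4 without LM replicate 2. That last fit called 141 of all genes in place of 10. For LM CD49a+ against MFL NK cells, 1 was called, against 3, 3 and 2 with the first 3 alternatives, 0 with only the 2 groups, 0 to 2 when each library was left out, 4 without LM replicate 2 and 0 without LM replicate 3. For ILC1 against MFL NK cells, 1 was called, against 2 without a filter, 3 with limma-voom, 0 at 0.05, 2 with only the 2 groups and 0 to 1 when a library was left out. For LM CD49a+ NK cells against ILC1, 3 were called, against 2 at 0.05, 2 with only the 2 groups and 1 to 4 when a library was left out. The interaction had 0, and 1 without a filter. In the lymphocytes, the fit without a filter gave lower adjusted p-values for the NR4A genes it called, at nearly the same log2 differences. For Nr4a3 in LM CD49a- against MFL NK cells the edgeR adjusted p was 1.6e-32 in place of 0.0675. Calls from that fit are not taken as support. In MAM, 6 were called throughout. Over all genes, DESeq2, no filter and limma-voom called 309, 158 and 104 genes in place of 10, 589, 371 and 307 in place of 88, 919, 200 and 0 in place of 19 (LM CD49a+ against CD49a-), and 1367, 774 and 935 in place of 486. For ILC1 against MFL NK cells DESeq2 called 766, limma-voom 2645 and the fit of only the 2 groups 1228 in place of 416, and the interaction had 526 with DESeq2 and 264 without a filter in place of 140. At an adjusted p of 0.05 the counts were 4, 57, 8, 322 and 90 in place of 10, 88, 19, 486 and 140. The fit of only the 2 groups gave 3 in place of 10 and 3 in place of 19. When each library was left out in turn they ranged over 1 to 110, 26 to 168, 5 to 267, 268 to 562 (ILC1 against MFL NK), 257 to 708 and 75 to 256, and over 6550 to 7234 in place of 7555 in MAM. Deviations from the group means had correlations of -0.0452 to 0.0981 (median 0.033) between same-numbered lymphocyte libraries and -0.0145 to 0.172 (median 0.027) in MAM. Between libraries of different numbers they were -0.108 to 0.0836 (median -0.011) and -0.123 to 0.0907 (median -0.060). No source used here ties a number to a sorting, so the numbers were not taken to pair the samples. Whether same-numbered libraries shared a batch was not tested. The replicate block left the number of members called at 1, 1, 0, 1, 3, 0 and 6. The cause of these changes was not tested.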
